A study of Homo sapiens with 24 samples.

Results

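The genes described here start within the first 30 Mb of chromosome 6 or the first 30 Mb of chromosome 12 (GRCh38), at the outer end of each short arm, and had a mean of at least 1 CPM in at least 1 group. CPM are a gene's counts scaled to the size of its library. They were 359 of the 60617 gene identifiers in the count table, 165 on chromosome 6 and 194 on chromosome 12, and 16123 identifiers in the whole table reached that level. The segments were chosen by the measured ratios of the CD33 knockout line to the wild-type line, which stood apart there, so those ratios are given as a description, without a test. RNA was taken from THP1 cells, a human monocytic leukaemia line. The cells were wild type (WT) or knocked out for CD33 (CD33KO), and carried either the empty lentiviral vector pLKO.1 (shCTRL) or a short hairpin RNA against PTPN6 (shPTPN6).

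All 4 groups shared the same handling: 24 h with the virus, 48 h of rest, selection with 1 µg/ml puromycin, then differentiation to macrophages with 10 ng/ml of the phorbol ester PMA for 48 h followed by 48 h without it. The control groups therefore also carried a vector and had been selected and treated with PMA. Each group had 6 labelled samples. Sample 2 of CD33KO_shPTPN6 was not analysed here, which left 6 libraries in each of 3 groups and 5 in CD33KO_shPTPN6. Neither whether the knockout line was a single clone or a pool, nor whether the samples of a group were separate cultures, is given in the sources used here, so the p-values below measure only the spread between these libraries.

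Cancer cell lines commonly carry gains and losses of chromosome arms, and sublines of one line can come to differ in them. A segment present in more copies tends to give more RNA from many of its genes together, since most genes are not fully compensated for dosage. The outer short arm of chromosome 6 holds the main cluster of replication-dependent histone genes, the butyrophilins and the first MHC class I genes. That of chromosome 12 holds the glycolytic genes GAPDH and TPI1, a cluster of C-type lectin receptor genes, and ETV6, a transcription factor gene often rearranged or deleted in leukaemia. DNA copy number was not measured, and from RNA alone a difference in the number of gene copies and one in transcription per copy cannot be told apart.

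The hairpin's own target, PTPN6, which encodes the phosphatase SHP-1, is one of the chromosome 12 genes. The target site is shown because it ties the treatment to this segment. It lies at chr12:6959963-6959983 of GRCh38 on the plus strand, in exon 12 of 16 and within the coding sequence in 3 of the 7 PTPN6 transcripts that hold it. The site is in capitals and 20 bases of the spliced transcript on either side are in lower case, read 5′ to 3′.

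PTPN6 target site: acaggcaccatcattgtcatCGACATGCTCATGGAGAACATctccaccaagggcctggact

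Library totals with the control vector were 4170191 to 5700712 counts for WT and 2048161 to 3749258 for CD33KO. With the hairpin they were 3318001 to 6269304 for WT and 2024032 to 2581042 for CD33KO, so every knockout library was shallower than the WT libraries with the same vector. CD33, which encodes an inhibitory receptor of myeloid cells, was at 39.7 to 48.5 CPM in WT_shCTRL and 16.2 to 22.5 CPM in CD33KO_shCTRL, and at 81.3 to 94.9 CPM in WT_shPTPN6 and 15.7 to 29.0 CPM in CD33KO_shPTPN6. It was lower in the libraries labelled knockout with either vector, though not at 0. Where the gene was edited is not given in the sources used here, so counts of 3′ ends are not a check of the edit itself. Of 12 macrophage and monocyte markers 11 reached 1 CPM in each group, and their summed level was 1753 to 2086, 3538 to 3709, 1202 to 1430 and 2638 to 2883 CPM in WT_shCTRL, WT_shPTPN6, CD33KO_shCTRL and CD33KO_shPTPN6. Mitochondrial transcripts took 7.85 to 8.70% of counts in WT_shPTPN6 and 5.86 to 7.13% in the other groups. Summed levels of fibroblast and endothelial markers were 177 to 194, 377 to 443, 378 to 426 and 698 to 767 CPM in the same order, nearly all of it PECAM1, while the endothelial markers CDH5 and KDR had means under 1 CPM in every group. Markers within a list moved apart: between WT_shCTRL and CD33KO_shCTRL the mean of CD14 went from 281 to 610 CPM and that of LYZ from 26.1 to 3.49 CPM. Epithelial and HEK-293 markers summed to 26.3 to 38.8, 8.22 to 14.4, 57.4 to 72.4 and 21.2 to 35.6 CPM; of these CDH2 was at means of 14.3 and 63.9 CPM in WT_shCTRL and CD33KO_shCTRL, and INA at 17.4 and 0.276 CPM. The part of these shifts in the results below was not tested.

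Most genes of the chromosome 6 segment were higher in the knockout line, and most genes of the chromosome 12 segment were lower. Of the 120 chromosome 6 genes that passed the filter on low counts, the median log2 ratio of CD33KO to WT was 0.74 with the control vector, a ratio of 1.67, and 0.83 with the hairpin. For the 148 chromosome 12 genes it was -0.74, a ratio of 0.598, and -0.73. Over all 13098 genes tested the medians were -0.01 and 0.01. The other 45 chromosome 6 and 46 chromosome 12 members, with group means of at most 3.39 and 3.58 CPM, were not tested. CD33KO_shCTRL had the higher mean in 32 of 45 on chromosome 6 and the lower mean in 34 of 46 on chromosome 12. Genes this near the minimum of 1 CPM can be members only through the group where they were high, so nothing is read from these counts.

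With the control vector 105 of the 120 chromosome 6 genes had a ratio above 0, against 49.5% of all genes, with quartiles of 0.38 and 1.31 on the log2 scale. Adjusted p was under 0.05 in edgeR's quasi-likelihood test for 91 of them as higher and 7 as lower; across all genes 28.3% were called higher and 28.4% lower. On chromosome 12, 126 of 148 genes had a ratio below 0, against 50.5% of all genes, with quartiles of -1.09 and -0.26, and 8 were called higher and 108 lower. The libraries of the lines did not overlap for 70 chromosome 6 genes and 90 chromosome 12 genes, where 34.1% of all genes did not overlap. These shares describe what chose the segments and nothing is read from them.

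With the hairpin, 105 chromosome 6 genes again had a ratio above 0, where 50.5% of all genes did, and 120 chromosome 12 genes one below 0, where 49.5% did. The calls were 81 higher and 7 lower on chromosome 6 and 18 higher and 100 lower on chromosome 12, where 29.0% of all genes were called higher and 27.5% lower, 56.5% in either direction, and libraries did not overlap for 71 and 97 genes, beside 37.2%. The libraries of the 2 vector arms are separate, but the ratios with both vectors belong to what chose the segments. Their agreement is therefore given as a description and not as a check of one arm by the other. Of the chromosome 6 genes 99 were above 0 with both vectors and 9 below 0 with both; of the chromosome 12 genes 111 were below 0 with both and 13 above. Across all genes 37.1% were above 0 with both vectors and 37.1% below. Across genes, which are not independent replicates, Pearson's r between the arms was 0.84 (Spearman's rho 0.75, n = 120) on chromosome 6 and 0.80 (0.68, n = 148) on chromosome 12; these points share the depth and composition of the libraries.

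Each knockout library showed the shift on its own. Against the WT mean with the same vector, the median over chromosome 6 members ran from 0.70 to 0.77 in the 6 CD33KO_shCTRL libraries (median 0.74) and was 0.76, 0.75, 0.85, 0.74 and 0.82 in the 5 CD33KO_shPTPN6 libraries. All WT libraries lay between -0.02 and 0.03, apart from the knockout libraries. WT values lie near 0 by construction on both chromosomes, since each WT library is part of the mean it is set against. The shift is also what chose the segments, so these values are a description. On chromosome 12 the CD33KO_shCTRL libraries ran from -0.80 to -0.63 (median -0.67) and the CD33KO_shPTPN6 libraries were at -0.75, -0.75, -0.77, -0.74 and -0.64, while WT libraries stayed between -0.02 and 0.01. Sample 6 was the lowest of its group in CD33KO_shCTRL and the highest in CD33KO_shPTPN6, and the lines did not overlap with or without it. As a share of all counts, the chromosome 6 segment took 0.438 ± 0.0053% in WT_shCTRL and 0.733 ± 0.00997% in CD33KO_shCTRL (SD, n = 6 each), and the chromosome 12 segment 1.08 ± 0.0105% and 0.656 ± 0.0090%.

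**Figure D1:**
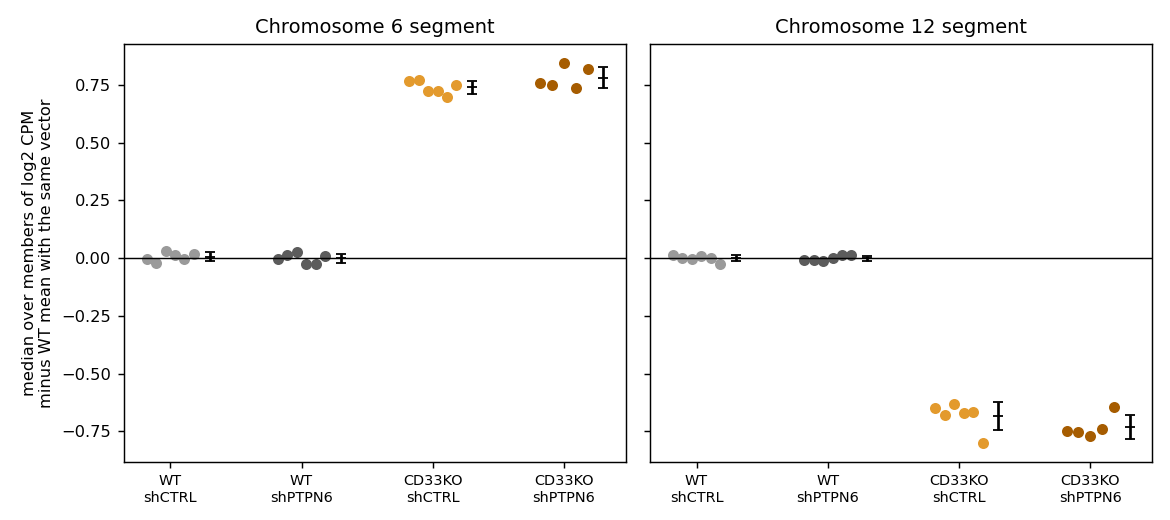
Median over the tested segment genes of log2 CPM minus the WT mean with the same vector, 1 point per library, with mean and SD beside each group. Knockout libraries lie at 0.70 to 0.85 on chromosome 6 and at -0.80 to -0.63 on chromosome 12, apart from WT libraries near 0.

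Set against the rest of the genome, cut into 111 stretches of 30 Mb that held at least 20 tested genes, the first stretch of chromosome 6 had the highest median ratio and the first stretch of chromosome 12 the lowest, with either vector. The segments were chosen because these ratios stood apart, so nothing is read from their ranks. The other stretches ranged from -0.41 to 0.55 with the control vector (SD 0.14) and from -0.50 to 0.49 with the hairpin (SD 0.15). Next highest was the start of chromosome 5, at 0.55 and 0.49 over 43 genes, followed by chromosome 6 from 30 to 60 Mb at 0.34 and 0.36. Next lowest was chromosome 12 from 90 to 120 Mb, at -0.41 and -0.50 over 152 genes. Medians of the same sign and smaller size thus continued past the segment on both chromosomes.

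**Figure D2:**
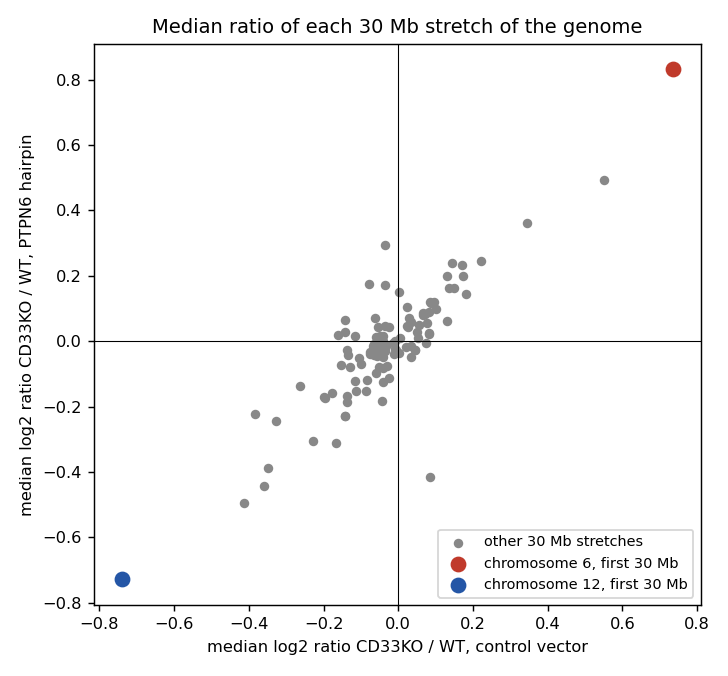
Median log2 ratio of CD33KO to WT of each 30 Mb stretch with at least 20 tested genes, with the control vector (x axis) and with the PTPN6 hairpin (y axis). The first 30 Mb of chromosome 6 (0.74, 0.83) and of chromosome 12 (-0.74, -0.73) are the outermost of 111 points. These ratios chose the segments, so their place is a description.

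Along chromosome 6 the ratio was similar in each 10 Mb of the segment. The median was 0.75 and 0.68 (control vector and hairpin) over 32 genes from 0 to 10 Mb, 0.73 and 0.86 over 36 genes from 10 to 20 Mb, and 0.71 and 0.87 over 52 genes from 20 to 30 Mb. No step marked the 30 Mb limit itself: the 59 genes from 30 to 32 Mb, in the MHC, stood at 0.62 and 0.67. The ratio then declined, to 0.37 and 0.32 over 46 genes from 32 to 34 Mb, 0.24 and 0.29 over 115 genes from 34 to 46 Mb, 0.99 and 0.79 over only 4 genes from 46 to 48 Mb, and -0.10 and 0.15 over 25 genes from 48 to 60 Mb. Beyond 60 Mb, over 310 genes, it was -0.17 and -0.24, on the other side of 0. Within the segment a running median over 21 genes stayed between 0.49 and 1.10 with the control vector and between 0.38 and 1.27 with the hairpin. Windows of 2 Mb varied more. The median was 0.40 and 0.42 over 10 genes from 10 to 12 Mb. It was 1.88 and 1.68 over 4 genes from 14 to 16 Mb.

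Chromosome 12 was less even over stretches of 10 Mb with the control vector. The median was -0.75 and -0.78 over 82 genes from 0 to 10 Mb, -0.46 and -0.68 over 33 genes from 10 to 20 Mb, and -0.85 and -0.61 over 33 genes from 20 to 30 Mb. It then moved to -0.33 and -0.39 over 49 genes from 30 to 48 Mb, and a second low stretch followed on the long arm, at -0.78 and -0.66 over 49 genes from 48 to 52 Mb. Neighbouring genes from 52 to 60 Mb stood at -0.16 and -0.22 (117 genes), and the 342 genes beyond 60 Mb at -0.35 and -0.38. Of the latter, the 81 genes from 60 to 90 Mb stood nearest to 0, at -0.16 with the control vector and 0.02 with the hairpin. The running median within the segment lay between -1.16 and -0.35 with the control vector and between -1.20 and -0.25 with the hairpin.

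**Figure D3:**
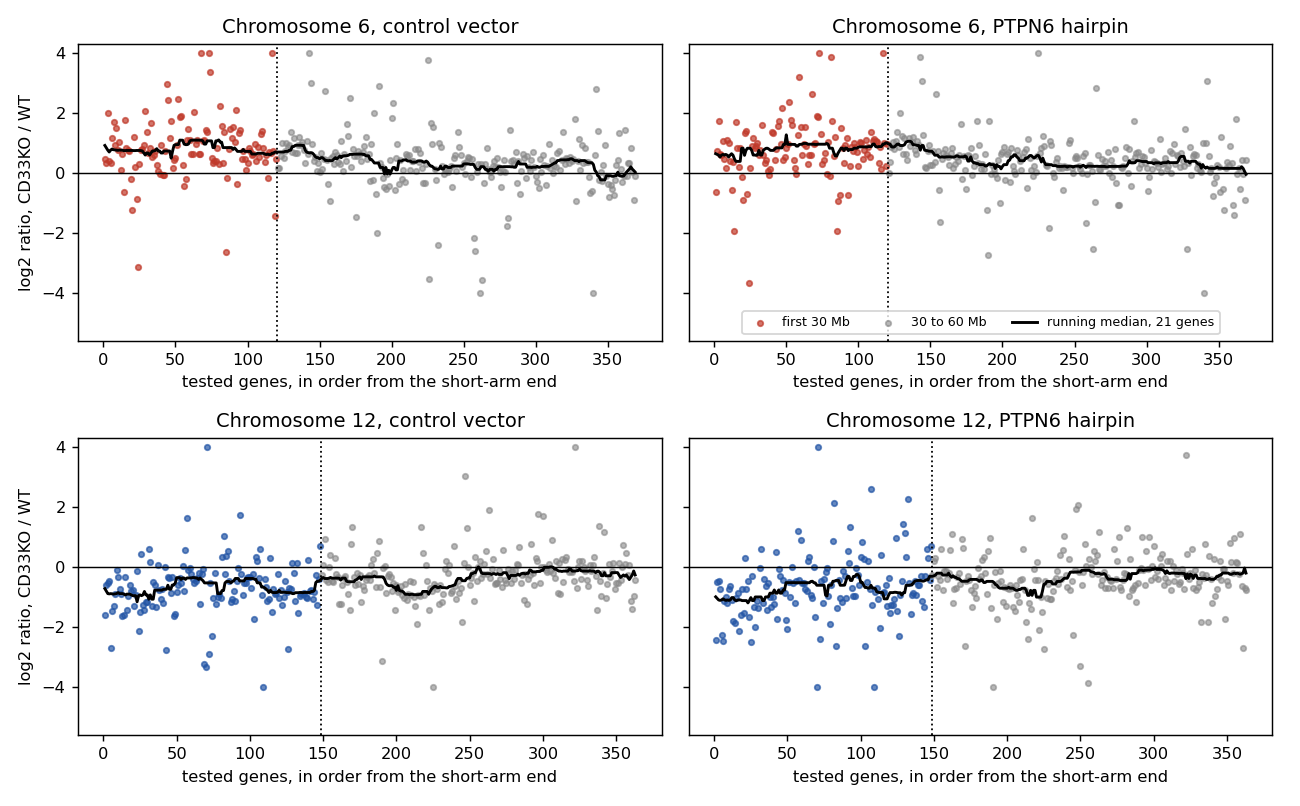
Log2 ratio of CD33KO to WT for each tested gene of the first 60 Mb, in order from the short-arm end, with a running median over 21 genes; a dotted line marks 30 Mb and points beyond 4 or -4 are drawn at that value. On chromosome 6 the running median stays above 0 through the coloured segment and falls towards 0 to its right, and on chromosome 12 it stays below 0 through the segment.

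Among protein-coding members alone the medians with the control vector were 0.74 (111 genes) and -0.78 (133 genes). In 3 classes of expression of about equal size, from low to high, they were 0.74, 0.69 and 0.79 on chromosome 6 and -0.50, -0.78 and -0.82 on chromosome 12, so the least expressed genes of chromosome 12 stood nearest to 0. Single genes scattered about the median. Among those with a mean of at least 10 CPM, 25 of 76 on chromosome 6 (32.9%) lay within 0.3 of their segment's median with both vectors. On chromosome 12 it was 20 of 98 (20.4%), and 33.2% of all genes at that level lay that near to theirs. The chromosome 6 share was thus near that of all genes, and the chromosome 12 share was below it. The genes on either side of the 30 Mb limit showed the same scatter. On chromosome 6 HLA-J, just outside, was at 0.16 and 0.36; HLA-G, inside, was too low to test and POLR1HASP, outside, stood at 0.15 and 0.00. On chromosome 12 TMTC1, just inside, was at 0.72 and 0.70, against its segment, while IPO8 and CAPRIN2, just outside, were at -0.25 and 0.07 with the control vector, and the pseudogene RPL21P99, inside, was not tested. At the minimum level, AL031777.1 and LINC00477 just passed with highest group means of 1.04 and 1.01 CPM and AL008729.1 and METTL8P1 just failed with 0.998 and 0.986 CPM.

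The list of transcription and chromatin regulators on chromosome 6 was higher in the knockout line in 10 of 10 tested cases with both vectors, with median log2 ratios of 1.25 and 1.27. Of all tested genes of the segment 87.5% were above 0 with each vector. Nothing is read from the counts above 0 in this and the other chromosome 6 lists. JARID2, a subunit of the Polycomb complex PRC2, ranged from 102 to 117 CPM in WT_shCTRL (median 110) and from 385 to 447 CPM in CD33KO_shCTRL (median 398). With the hairpin it ranged from 137 to 152 CPM in WT (median 148) and was 489, 483, 495, 464 and 537 CPM in the 5 CD33KO libraries. The lines did not overlap with either vector, at log2 ratios of 1.87 ± 0.05 (SE) and 1.75 ± 0.05. SOX4, a transcription factor of progenitor cells, was among the most abundant, at 341 to 452 CPM in WT_shCTRL (median 429) and 1022 to 1219 CPM in CD33KO_shCTRL (median 1126). Its log2 ratios were 1.43 ± 0.05 and, with the hairpin, 1.89 ± 0.06, and every knockout library was above every wild-type one.

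DEK, a chromatin-binding protein, and E2F3, a cell cycle transcription factor, stood nearer to the segment's median. DEK was at 122 to 125 CPM in WT_shCTRL (median 123) and 179 to 211 CPM in CD33KO_shCTRL (median 191), with log2 ratios of 0.63 and 0.60. E2F3 was at 41.5 to 52.8 CPM (median 49.4) and 91.6 to 110 CPM (median 103), with ratios of 1.07 and 0.95. TFAP2A, a developmental transcription factor named here after its values were seen, had ratios of 1.66 and 1.58; it overlaps antisense genes, and the counting's strand setting is not given, so their reads may be included. The segment's list headed cell cycle held 9 tested genes: DEK, E2F3, RANBP9, TDP2, NUP153, GMNN, KIF13A, CDKAL1 and GMDS. Some have other main roles, so the list is not a measure of the cell cycle. Of the 9, 9 were above 0 with the control vector and 8 with the hairpin, with medians of 0.62 and 0.83. The exception was GMNN, which encodes the replication inhibitor geminin, at 0.29 and -0.12, named after its values were seen.

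Of the chromosome 6 genes with at least 10 CPM, CD83, EDN1, PHACTR1 and RIPOR2 stood highest over the knockout line's 2 ratios. CD83, a surface marker of mature dendritic cells and activated macrophages, ranged from 30.01 to 37.1 CPM in WT_shCTRL (median 34.4) and from 168 to 204 CPM in CD33KO_shCTRL (median 188), and with the hairpin from 20.2 to 32.04 CPM (median 27.9) in WT against 152, 152, 135, 145 and 136 CPM in CD33KO. Both ratios were near 2.4, at 2.46 ± 0.07 and 2.38 ± 0.08, and no libraries overlapped. EDN1, which encodes the vasoconstrictor peptide endothelin-1, was at 2.45 to 4.66 CPM in WT_shCTRL (median 3.87) and 20.2 to 40.1 CPM in CD33KO_shCTRL (median 28.0), a log2 ratio of 2.96 ± 0.17. PHACTR1, a regulator of actin and protein phosphatase 1 that overlaps TBC1D7 on the other strand and is counted in the list of regulators above, was at 8.08 to 12.5 CPM (median 9.77) and 44.0 to 61.4 CPM (median 56.3), a ratio of 2.42 ± 0.12. With the hairpin these ratios were 1.57 ± 0.16 for EDN1 and 1.72 ± 0.15 for PHACTR1. RIPOR2, a regulator of cell polarity and migration, went the other way, from 2.22 ± 0.13 with the control vector to 3.85 ± 0.14 with the hairpin.

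Of the 11 inflammatory and macrophage genes tested on chromosome 6, 9 had a ratio above 0 with each vector, with medians of 1.09 and 0.98. RIPK1, a kinase of cell death and inflammatory signalling, was close to the median of all segment genes, at 24.1 to 28.6 CPM in WT_shCTRL (median 26.1) and 40.9 to 50.4 CPM in CD33KO_shCTRL (median 42.0), with log2 ratios of 0.76 and 0.98. LY86, which encodes the MD-1 partner of the Toll-like receptor homologue CD180, ran against the segment. It was at 11.4 to 15.6 CPM in WT_shCTRL (median 13.01) and 0.458 to 3.08 CPM in CD33KO_shCTRL (median 1.17), with log2 ratios of -3.14 and -3.67. It was the lowest ratio of the tested chromosome 6 genes with either vector. LY86 is below 10 CPM on average and was named after its values were seen.

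SSR1, a subunit of the translocon-associated complex that takes proteins into the endoplasmic reticulum, was at 138 to 156 CPM in WT_shCTRL (median 152) and 240 to 282 CPM in CD33KO_shCTRL (median 247), with log2 ratios of 0.75 ± 0.05 and 0.89 ± 0.05. C6orf62, a gene of little-known function, was at 109 to 128 CPM (median 119) and 196 to 225 CPM (median 214), with 0.84 ± 0.06 and 1.03 ± 0.06. TRIM27, a ubiquitin ligase, stood at 0.71 and 1.00. The libraries of the lines did not overlap for any of these 3 genes with either vector.

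The serpins SERPINB1 and SERPINB6, intracellular inhibitors of proteases, were higher in the knockout line chiefly with the control vector. SERPINB1 was at 29.3 to 36.4 CPM in WT_shCTRL (median 31.7) and 92.9 to 108 CPM in CD33KO_shCTRL (median 104). With the hairpin the WT range was 28.9 to 36.6 CPM (median 33.0) and the CD33KO libraries were at 44.9, 52.1, 48.5, 37.6 and 44.2 CPM, still all above WT. The log2 ratio was 1.68 ± 0.08 with the control vector and 0.46 ± 0.10 with the hairpin, and for SERPINB6 0.91 ± 0.11 and 0.17 ± 0.13.

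Of the 15 replication-dependent histone genes tested, 13 were above 0 with the control vector and 12 with the hairpin, with medians of 1.18 and 0.88. These transcripts mostly lack a poly(A) tail and are caught only in part by a method that starts from poly(A), and near-identical copies can share reads, so their values are uncertain. H1-2, a linker histone, was at 35.4 to 47.5 CPM in WT_shCTRL (median 41.9) and 98.8 to 120 CPM in CD33KO_shCTRL (median 106), a log2 ratio of 1.38 ± 0.07. H4C3, the most abundant, differed from that pattern: 165 to 211 CPM (median 207) and 156 to 209 CPM (median 177) overlapped with the control vector, and with the hairpin 152 to 192 CPM (median 169) in WT stood above 90.4, 80.9, 97.0, 84.0 and 87.5 CPM in CD33KO. Its ratios were -0.16 ± 0.06 and -0.96 ± 0.08.

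HFE, the class I-like regulator of iron uptake, was at 1.80 to 4.89 CPM in WT_shCTRL (median 2.81) and 0 to 0.798 CPM in CD33KO_shCTRL (median 0.454), opposite to the segment. HFE was named after its values were seen. The 6 butyrophilins tested, membrane proteins that regulate T cells, were above 0 with both vectors in 6 of 6 cases, with medians of 0.45 and 0.80. Of 7 zinc finger and tripartite-motif genes 6 were above 0 with the control vector and 7 with the hairpin, with medians of 0.61 and 0.86.

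Of the 9 chromosome 6 genes below 0 with both vectors, LY86 and HFE among them, 3 had a mean of at least 10 CPM: PPP1R3G, NRN1 and H4C3. PPP1R3G, a glycogen-targeting subunit of protein phosphatase 1, was at 24.1 to 30.6 CPM in WT_shCTRL (median 24.9) and 7.65 to 13.6 CPM in CD33KO_shCTRL (median 11.4), with log2 ratios of -1.24 and -0.89. NRN1, a membrane-anchored neuritin, was at 61.6 to 75.6 CPM (median 67.8) and 33.3 to 45.4 CPM (median 36.4), with -0.86 and -0.71. Libraries of the lines did not overlap for either gene. At the other extreme, 3 genes were near 0 in WT_shCTRL. Of these PRL and SCAND3 had means under 1 CPM in both WT groups, so they are members only through the knockout line. PRL, the prolactin gene, was at 0 to 0.345 CPM in WT_shCTRL and 6.30 to 11.6 CPM in CD33KO_shCTRL, SCAND3 at 0 to 0.613 and 4.84 to 8.31 CPM, and the ubiquitin ligase RNF144B at 0.233 to 1.02 and 9.24 to 14.7 CPM; these were named after their values were seen, and PRL overlaps CASC15 on the other strand.

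**Figure D4:**
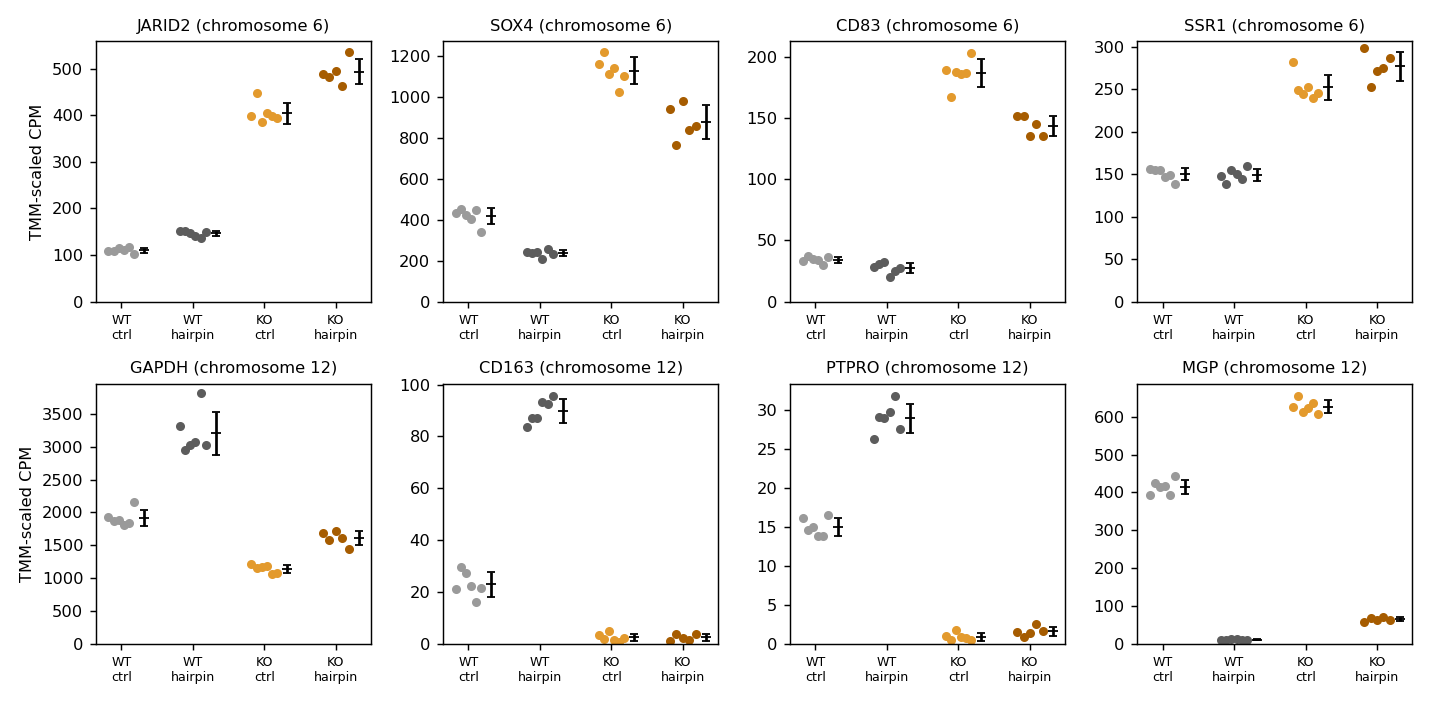
TMM-scaled CPM of 4 chromosome 6 and 4 chromosome 12 genes, 1 point per library, with mean and SD beside each group; ctrl is the control vector and hairpin the PTPN6 hairpin. The knockout libraries lie above wild type for JARID2, SOX4, CD83 and SSR1 and below for GAPDH, CD163 and PTPRO, and MGP is higher in the knockout with each vector but far lower with the hairpin in both lines.

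On chromosome 12 the genes of glycolysis and metabolism were lower in the knockout line in 7 of 8 tested cases with either vector, with median log2 ratios of -0.94 and -1.50. Of all tested genes of the segment 85.1% were below 0 with the control vector and 81.1% with the hairpin. Nothing is read from the counts below 0 in this and the other chromosome 12 lists. GAPDH, the glycolytic dehydrogenase often used as a reference gene, ranged from 1810 to 2154 CPM in WT_shCTRL (median 1877) and from 1061 to 1218 CPM in CD33KO_shCTRL (median 1159). With the hairpin it ranged from 2960 to 3825 CPM in WT (median 3053) and was 1680, 1581, 1713, 1617 and 1447 CPM in CD33KO. Both differences left a clear gap between the lines, at -0.74 ± 0.05 and -0.996 ± 0.05. LDHB, a lactate dehydrogenase subunit, was at 253 to 305 CPM (median 270) and 127 to 141 CPM (median 132), with -1.04 ± 0.05 and -1.54 ± 0.06. SLC2A3, the glucose transporter GLUT3, was at 27.5 to 33.1 CPM (median 29.8) and 2.66 to 7.33 CPM (median 3.55), with -2.91 ± 0.17 and -2.40 ± 0.23. SLC2A3 has a near-identical neighbour, SLC2A14, with which it can share reads. The exception was ENO2, the neuronal enolase, at 1.64 and 1.21, named after its values were seen.

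Of the chromosome 12 genes with at least 10 CPM, SLC2A3, CD163, PTPRO and IRAG2 stood lowest over both ratios. CD163, the haemoglobin scavenger receptor of macrophages, was at 16.04 to 29.5 CPM in WT_shCTRL (median 21.9) and 0.798 to 4.95 CPM in CD33KO_shCTRL (median 2.02). With the hairpin it was at 83.6 to 95.6 CPM in WT (median 89.7) and 0.988, 3.66, 2.24, 1.55 and 3.68 CPM in CD33KO. The log2 ratios were -3.33 ± 0.21 and -5.15 ± 0.19, and the gap between the lines was complete; the gene overlaps CD163L1 on the same strand. PTPRO, a receptor tyrosine phosphatase, was at 13.8 to 16.5 CPM (median 14.8) in WT_shCTRL and 0.440 to 1.80 CPM (median 0.827) in CD33KO_shCTRL, with -4.03 ± 0.26 and -4.17 ± 0.23, the lowest ratio of a tested chromosome 12 gene with the control vector. C3AR1, the receptor of complement fragment C3a, was at 31.5 to 36.6 CPM (median 32.8) and 4.84 to 10.3 CPM (median 6.53), with -2.30 ± 0.14 and -1.21 ± 0.13. IRAG2, an endoplasmic reticulum membrane protein of lymphoid and myeloid cells, was at 83.7 to 104 CPM (median 92.9) and 11.6 to 17.0 CPM (median 14.4), with -2.72 ± 0.10 and -2.29 ± 0.15.

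Of 11 genes in the list of tumour necrosis factor receptors and inflammation, 8 were below 0 with the control vector and 9 with the hairpin, with medians of -0.92 and -1.20. CD4, the T cell coreceptor that monocytes also carry, and TNFRSF1A, the main receptor of tumour necrosis factor, had ratios of -1.56 and -1.76 and of -1.29 and -1.20; both were named after their values were seen. ARHGDIB, an inhibitor of small GTPases in blood cells, was at 685 to 745 CPM in WT_shCTRL (median 720) and 360 to 394 CPM in CD33KO_shCTRL (median 380), with -0.92 ± 0.05 and -1.26 ± 0.05. EMP1, an epithelial membrane protein, changed sides with the vector. It was at 466 to 507 CPM in WT_shCTRL (median 501) and 282 to 326 CPM in CD33KO_shCTRL (median 309), but with the hairpin at 201 to 262 CPM in WT (median 231) and 405, 438, 418, 392 and 412 CPM in CD33KO, for ratios of -0.69 ± 0.05 and 0.82 ± 0.05.

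A2M, the secreted protease inhibitor alpha-2-macroglobulin, was the segment's second most abundant gene after GAPDH among those named, at 827 to 903 CPM in WT_shCTRL (median 869) and 365 to 480 CPM in CD33KO_shCTRL (median 415). Its ratios of -1.04 ± 0.05 and -0.61 ± 0.05 came with no overlap between the lines. The 5 tested genes of its list, complement and protease inhibitors, had a median of -1.04 with the control vector, all below 0, and of -0.61 with the hairpin, with 3 below 0.

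All 11 tested genes of transcription and chromatin on chromosome 12 were below 0 with the control vector and 8 with the hairpin, with medians of -0.53 and -0.44. ETV6, a repressor required for blood stem cells, was at 130 to 141 CPM in WT_shCTRL (median 135) and 56.4 to 68.8 CPM in CD33KO_shCTRL (median 61.2), with -1.14 ± 0.06 and -1.02 ± 0.07. KDM5A, a histone H3 lysine 4 demethylase, was at 122 to 138 CPM (median 129) and 78.2 to 108 CPM (median 86.8), with -0.54 ± 0.07 and -0.46 ± 0.07. Both genes were lower in every knockout library than in any wild-type library of the same vector.

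Of 15 signalling genes 14 were below 0 with the control vector and 12 with the hairpin, with medians of -0.67 and -0.73. WNK1, a kinase of ion transport, was at 259 to 288 CPM in WT_shCTRL (median 280) and 136 to 167 CPM in CD33KO_shCTRL (median 150), with -0.89 ± 0.05 and -0.99 ± 0.06. YBX3, a cold shock protein that binds RNA and DNA, was at 244 to 293 CPM (median 262) and 110 to 126 CPM (median 118), with -1.16 ± 0.05 and -1.18 ± 0.06. PTPN6 itself lay nearer to 0, at -0.23 ± 0.10 and -0.52 ± 0.19, and its libraries overlapped between the lines with both vectors.

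The list headed cell cycle and cyclin genes held 11 tested genes, 10 of them below 0 with each vector, with medians of -0.85 and -1.12. It also holds genes with other main roles, such as PHB2. PHB2, the mitochondrial prohibitin 2, was at 215 to 260 CPM in WT_shCTRL (median 240) and 165 to 206 CPM in CD33KO_shCTRL (median 177), with -0.41 ± 0.05 and -0.53 ± 0.06. CHD4, the helicase of the NuRD complex, did not follow the segment. Its 193 to 212 CPM (median 206) and 183 to 228 CPM (median 205) overlapped with the control vector, at 0.01 ± 0.05, a value whose sign turned with other size factors, and with the hairpin the knockout was higher, at 0.50 ± 0.06. FOXM1, a transcription factor of dividing cells named after its values were seen, was at -0.96 and -2.13, and overlaps genes on the other strand.

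The list of C-type lectin and killer lectin-like receptors had 5 tested genes, of which GABARAPL1 is an autophagy gene and not a lectin. Their median CD33KO to WT ratio was 0.38 on the log2 scale with the control vector and -1.37 with the hairpin. With the control vector 3 of the 5, GABARAPL1, CLEC2D and OLR1, were above 0 and 2 below, and with the hairpin 1 was above. OLR1, the receptor of oxidised low-density lipoprotein, named after its values were seen, was at 16.3 to 19.97 CPM in WT_shCTRL (median 17.5) and 19.7 to 27.4 CPM in CD33KO_shCTRL (median 22.8), ranges that overlapped, with ratios of 0.38 ± 0.12 and -1.37 ± 0.20.

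In all, 13 chromosome 12 genes were above 0 with both vectors, against the segment. MGP, a secreted inhibitor of calcification, was at 393 to 444 CPM in WT_shCTRL (median 415) and 608 to 655 CPM in CD33KO_shCTRL (median 625); the gene overlaps C12orf60 on the other strand. CLEC2D, a lectin-like ligand of the natural killer receptor KLRB1, was at 9.45 to 16.2 CPM (median 13.2) and 23.9 to 32.1 CPM (median 24.9). DUSP16, a phosphatase of stress kinases, was at 2.25 to 5.89 CPM (median 5.05) and 10.1 to 19.8 CPM (median 13.8). Knockout libraries were above wild type throughout for these genes, with log2 ratios of 0.60 ± 0.04 and 2.61 ± 0.09 for MGP, 1.03 ± 0.13 and 2.13 ± 0.12 for CLEC2D, and 1.72 ± 0.19 and 1.34 ± 0.18 for DUSP16. The long non-coding RNA RASSF8-AS1 was at 0.14 ± 0.15 and 1.43 ± 0.16; it lies opposite RASSF8, and their reads cannot be told apart without the strand. The pseudogene AC006927.5, named after its values were seen, was at 0 in every WT library, so it is a member only through the knockout line. It was at 2.44 to 6.88 CPM in CD33KO_shCTRL and 2.58 to 3.66 CPM in CD33KO_shPTPN6.

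The knockdown contrasts were not used to choose the segments and could be tested. PTPN6 fell in both lines: in WT from 35.8 to 52.4 CPM (median 45.3) with the control vector to 8.73 to 12.8 CPM (median 10.7) with the hairpin, and in CD33KO from 32.6 to 44.1 CPM (median 37.5) to 4.94, 7.31, 7.63, 11.9 and 5.32 CPM. No library with the hairpin reached a control library. It fell by 2.08 ± 0.11 on the log2 scale in WT (adjusted p = 2.07e-33, edgeR quasi-likelihood test) and by 2.37 ± 0.17 in CD33KO (adjusted p = 2.07e-24), and the difference between the lines, -0.29 ± 0.22, did not pass the test (adjusted p = 0.355).

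Segment medians of the knockdown ratio stayed near 0, while the chromosome 6 segment's share of all counts was lower with the hairpin. Its mean went from 0.438% to 0.319% in WT and from 0.733% to 0.600% in CD33KO. The mean share of the chromosome 12 segment went from 1.08% to 1.09% and from 0.656% to 0.615%. These shares weigh abundant genes most and were not tested. The median log2 ratio of hairpin to control vector was -0.08 in WT and -0.08 in CD33KO over the chromosome 6 genes, and -0.02 and 0.01 over the chromosome 12 genes, where the medians over all genes were 0.00 and -0.01. In WT, 21 chromosome 6 genes rose and 34 fell, which is 45.8% of the 120 against 60.6% of all genes, and 46 chromosome 12 genes rose and 48 fell, or 63.5% of the 148; of all genes 30.2% rose and 30.4% fell. The libraries of the vectors did not overlap for 24 chromosome 6 and 63 chromosome 12 genes in WT, where 37.4% of all genes did not, and for 33 and 37 in CD33KO, where 24.2% did not. In CD33KO, 17 and 35 chromosome 6 genes rose and fell (43.3%, against 42.1% of all genes), and 32 and 28 chromosome 12 genes (40.5%); of all genes 20.5% rose and 21.6% fell. Over both directions, the share for chromosome 6 in WT was below the background and the others were within 3 percentage points of it. By direction, 17.5% of the chromosome 6 genes rose and 28.3% fell in WT, and 14.2% rose and 29.2% fell in CD33KO.

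Of the chromosome 6 genes 26 passed the test in the same direction in both lines, which is 47.3% of those called in WT and 50% of those called in CD33KO; 8 rose and 18 fell. Across all genes the calls shared in direction were 48.2% of those in WT and 69.5% of those in CD33KO; 14.3% of all genes rose in both lines and 14.9% fell in both. On chromosome 12 there were 17 rises and 17 falls in both lines, together 36.2% of the WT and 56.7% of the CD33KO calls. Both shares of chromosome 12, and the CD33KO share of chromosome 6, were below those of all genes; the differences were not tested. The opposite directions were called for 3 of 120 and 10 of 148 genes (2.5% and 6.76%), beside 3.07% of all genes. Pearson's r across genes between the knockdown ratios of the lines, which share no libraries, was 0.51 (Spearman's rho 0.53, n = 120) on chromosome 6 and 0.61 (0.51, n = 148) on chromosome 12.

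Among the chromosome 6 genes with at least 10 CPM, FARS2, NEDD9 and CAP2 had the largest falls in WT. NEDD9, a scaffold of focal adhesions and cell migration, was at 127 to 152 CPM in WT_shCTRL (median 146) and 25.9 to 38.8 CPM in WT_shPTPN6 (median 31.9), and in CD33KO at 121 to 153 CPM (median 138) with the control vector and 62.2, 76.8, 73.2, 91.7 and 90.8 CPM with the hairpin. Hairpin libraries were below control libraries in both lines. It fell by 2.17 ± 0.07 in WT (adjusted p = 6.35e-48) and by 0.78 ± 0.08 in CD33KO (adjusted p = 1.55e-14). FARS2, the mitochondrial phenylalanyl-tRNA synthetase, went from 15.3 to 18.9 CPM (median 16.8) to 2.29 to 4.51 CPM (median 3.57) in WT, a fall by 2.33 ± 0.17, and fell by 1.10 ± 0.19 in CD33KO. CAP2, an actin-binding protein, fell by 1.495 ± 0.13 and 1.07 ± 0.13 (adjusted p = 1.09e-19 and 2.17e-12).

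SOX4 fell by 0.82 ± 0.06 in WT and 0.36 ± 0.06 in CD33KO (adjusted p = 4.18e-19 and 4.92e-07), and libraries of the vectors did not overlap in either line. Of the 7 zinc finger and tripartite-motif genes tested, 6 fell and none rose in WT, with a median of -0.66, and 2 fell and none rose in CD33KO, with a median of -0.72. ZSCAN9, a zinc finger gene named after its values were seen, fell in both lines, by 1.16 ± 0.17 and 0.74 ± 0.18. Of the 15 histone genes 3 rose and 2 fell in WT and 1 rose and 6 fell in CD33KO. Among all genes 30.2% rose and 30.4% fell in WT, and 20.5% and 21.6% in CD33KO.

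CDYL, a chromodomain corepressor, rose in both lines, from 33.9 to 42.2 CPM (median 37.7) to 52.8 to 71.3 CPM (median 59.6) in WT and from 57.7 to 69.3 CPM (median 64.4) to 106, 114, 123, 99.0 and 103 CPM in CD33KO. The libraries of the vectors did not overlap, and the rises were 0.68 ± 0.07 (adjusted p = 6.95e-14) and 0.77 ± 0.08 (adjusted p = 3.53e-14). MRS2, a mitochondrial magnesium channel, rose by 0.82 ± 0.12 and 0.64 ± 0.15, and JARID2 by 0.40 ± 0.05 and 0.29 ± 0.05 (adjusted p = 2.39e-11 and 5.66e-07). TPMT, the thiopurine methyltransferase, rose in WT by 0.88 ± 0.16 (adjusted p = 5.87e-07), and in CD33KO its ratio was 0.07 ± 0.18 (adjusted p = 0.800).

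On chromosome 12 MGP had the largest fall in each line. It went from 393 to 444 CPM (median 415) to 9.38 to 11.4 CPM (median 10.7) in WT and from 608 to 655 CPM (median 625) to 58.3, 66.7, 63.3, 71.1 and 63.8 CPM in CD33KO. Every hairpin library was several-fold below every control library of the same line. It fell by 5.29 ± 0.07 (adjusted p = 1.51e-90) and 3.28 ± 0.06 (adjusted p = 1.35e-73) on the log2 scale. IRAG2 fell by 1.61 ± 0.08 and 1.18 ± 0.19, and CHD4 by 1.04 ± 0.05 and 0.55 ± 0.06. STRAP, a WD40 protein of transforming growth factor signalling named after its values were seen, fell by 1.29 ± 0.07 and 1.32 ± 0.10. In the signalling list, which holds PTPN6 and STRAP, 2 of 15 genes rose and 9 fell in WT, and 1 rose and 7 fell in CD33KO. The medians were -0.59 and -0.17. Among all genes 30.2% rose and 30.4% fell in WT, and 20.5% and 21.6% in CD33KO.

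CLEC7A, the beta-glucan receptor dectin-1, had the largest rise in WT of the tested chromosome 12 genes, from 3.27 to 6.76 CPM (median 6.00) to 32.1 to 37.7 CPM (median 35.7). In CD33KO it was at 3.15 to 6.60 CPM (median 3.64) with the control vector and 6.91, 4.11, 1.80, 5.67 and 8.997 CPM with the hairpin, and those libraries overlapped. The rise was 2.69 ± 0.14 in WT (adjusted p = 1.99e-33), and the ratio in CD33KO was 0.28 ± 0.28 (adjusted p = 0.457). CD163 likewise rose by 1.97 ± 0.09 in WT (adjusted p = 9.60e-33), with a ratio of 0.16 ± 0.41 in CD33KO (adjusted p = 0.794), where it was near the floor of detection. MGST1, a membrane glutathione transferase, rose in both lines, by 1.79 ± 0.06 and 0.83 ± 0.11; it overlaps a pseudogene on the other strand. GAPDH rose by 0.75 ± 0.05 (adjusted p = 8.65e-24) and 0.49 ± 0.05 (adjusted p = 4.43e-13).

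Of the 8 genes of glycolysis and metabolism, 5 rose and 2 fell in WT, and 2 rose and 1 fell in CD33KO, with medians of 0.39 and -0.08. Beside the lists named here, 30.2% of all genes rose and 30.4% fell in WT, and 20.5% and 21.6% in CD33KO. The lists are small and nothing is read from their counts. In the C-type lectin list 3 of 5 rose and 1 fell in WT, and 1 rose and 1 fell in CD33KO. Of those that rose, GABARAPL1 is not a lectin but an autophagy protein whose gene lies within the same region. GABARAPL1 went from 40.0 to 44.3 CPM (median 41.5) to 83.4 to 99.1 CPM (median 91.6) in WT, a rise by 1.13 ± 0.07, and had a ratio of 0.15 ± 0.09 in CD33KO (adjusted p = 0.160). Of the 11 genes of the cell cycle and cyclin list, 3 rose and 3 fell in WT and 2 rose and 5 fell in CD33KO. RPL13AP20, a processed pseudogene of a ribosomal protein gene, rose by 1.12 ± 0.09 and 1.61 ± 0.13, but reads of its parent gene can be counted there.

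Whether the CD33KO to WT ratio differed between the vectors is the same question as whether the hairpin acted differently in the 2 lines, and was tested as an interaction. It passed for 26 chromosome 6 genes, 13 in each direction (21.7% of 120), and for 49 chromosome 12 genes, 27 above and 22 below 0 (33.1% of 148), beside 28.4% of all genes, 14.5% above and 13.9% below 0. Most genes of either segment had no called difference between the vectors, which does not show that their ratios were equal. EMP1 rose by 0.43 ± 0.05 with the hairpin in CD33KO and fell by 1.08 ± 0.05 in WT, an interaction of 1.51 ± 0.07 (adjusted p = 2.70e-37). MGP had 2.01 ± 0.11 (adjusted p = 2.69e-33), from falls of unequal size. NEDD9 had 1.39 ± 0.11 (adjusted p = 6.11e-20), and RIPOR2, which fell by 0.82 ± 0.17 in WT and rose by 0.81 ± 0.11 in CD33KO, had 1.63 ± 0.21 (adjusted p = 1.27e-10).

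Below 0, the smallest adjusted p were those of SERPINB1 and H4C3 on chromosome 6 and of GABARAPL1 and MGST1 on chromosome 12. SERPINB1 had a ratio of 0.05 ± 0.08 in WT and fell by 1.17 ± 0.09 in CD33KO, an interaction of -1.22 ± 0.12 (adjusted p = 5.17e-15). H4C3 had -0.80 ± 0.10 (adjusted p = 4.07e-10) and MGST1 -0.97 ± 0.13 (adjusted p = 2.05e-10). CLEC7A had -2.42 ± 0.33 (adjusted p = 8.77e-10) and GABARAPL1 -0.98 ± 0.11 (adjusted p = 6.16e-13). EDN1 had -1.39 ± 0.24 (adjusted p = 1.13e-06), since it rose by 1.28 ± 0.19 in WT. The interaction was called below 0 for 5 of 8 metabolic and 3 of 15 histone genes, and above 0 for none. Without the test, 6 and 11 of them were below 0 and 2 and 4 above. Of all genes 13.9% were called below 0 and 14.5% above. Both serpins were below 0. For JARID2, CD83, SSR1, DEK, E2F3, WNK1, YBX3 and ETV6 the interaction did not pass, with values from -0.12 to 0.14.

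**Figure D5:**
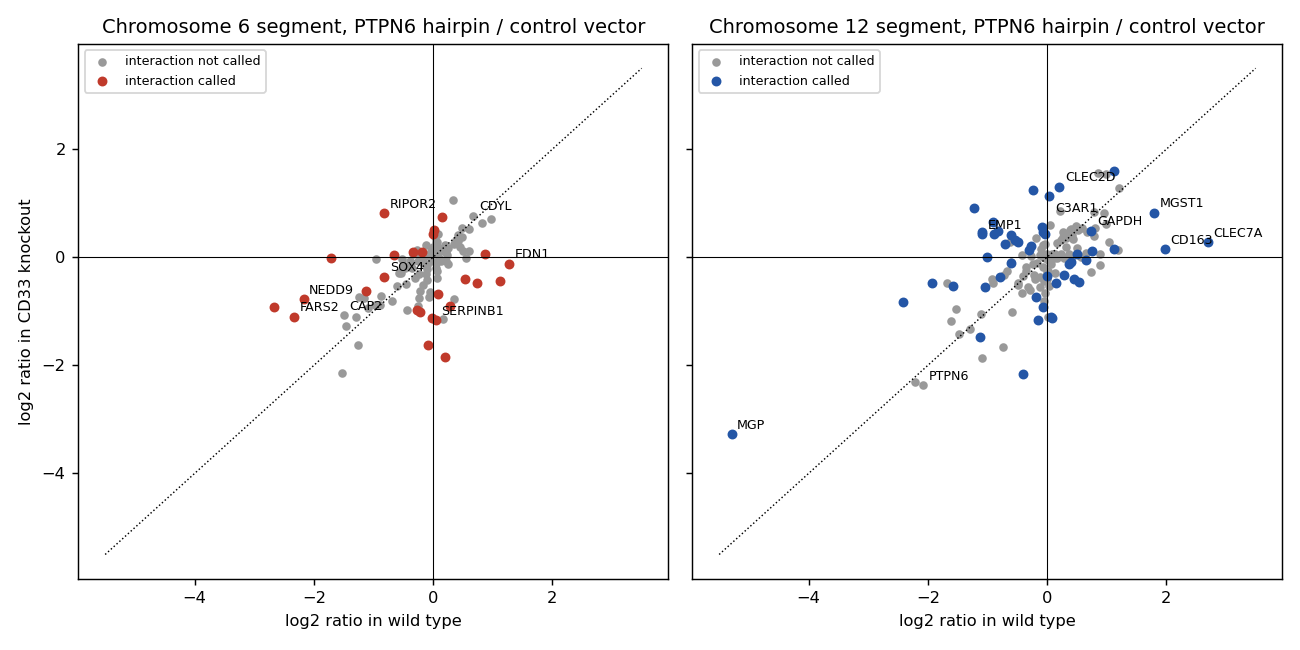
Log2 ratio of PTPN6 hairpin to control vector in wild type (x axis) and in the CD33 knockout (y axis) for each tested gene of the segments; coloured points passed the interaction test and the dotted line marks equal ratios. PTPN6 lies near the dotted line at about -2 in both lines, MGP above it at the lower left, and CD163 and CLEC7A to its right.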

How the data were processed

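Total RNA (100 ng) of each sample was turned into 3′ end counting libraries, per the labels' protocols. The deposited table holds raw counts per gene made by the authors. The build hg38 and the tools DESeq2 1.26.0, R 3.6.1, Subread 2.0.0 with featureCounts, STAR 2.7.3a and bcl2fastq are listed in the submitters' processing notes; the roles, settings, annotation release and strand setting are not given in the sources used here.

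Positions were taken from gencode 29 on GRCh38 for 58542 of the 60617 identifiers and by symbol from RefSeq for 60; the other 2015, with 0.047% of counts, had none. Counts were tested with edgeR 4.0.16 in R 4.3.3 (limma 3.58.1 loaded): filterByExpr, TMM factors, robust quasi-likelihood fit with 1 mean per group over all 23 libraries, and Benjamini-Hochberg adjustment over 13098 genes at 0.05. CPM are TMM-scaled, and SE is the log2 ratio divided by the square root of its F. The scripts were tested on simulated data. The members and gene lists were chosen with earlier results of these data known.

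Genes were named by rule: per segment, among those with a mean of at least 10 CPM, the 4 highest and 4 lowest over both CD33KO to WT ratios; the largest knockdown changes (3 each way in WT and 2 in CD33KO) among calls whose groups do not overlap; the 2 smallest interaction p-values each way; the 6 most abundant genes; up to 2 of each list; PTPN6; and the genes beside each limit. Some genes that met this rule are not reported here. Alternatives were other size factors, DESeq2 1.42.0, no filter, only the groups of the contrast, the replicate number as a block, each library left out, other limits of the segments, the mean, and other centring. No pair of libraries was alike beyond sampling noise: the 55 pairs within groups had a chi-square per gene of 1.50 to 3.88.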

Additional observations from a re-analysis of the deposited data

Results flagged for a closer look

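In 14 of 220 groups of libraries 1 library stood far from the others of its group, where chance gives about 1 in 20. For the median log2 ratio of the chromosome 12 segment these were sample 6 of CD33KO_shCTRL at -0.80, the lowest, and sample 6 of CD33KO_shPTPN6 at -0.64, the highest. In CD33KO_shCTRL the libraries that stood high were sample 4 for NRN1 (45.4 CPM), sample 1 for SSR1 (282 CPM), sample 2 for JARID2 (447 CPM) and SLC2A3 (7.33 CPM), and sample 3 for C3AR1 (10.3 CPM). Sample 1 of that group was low for RASSF8-AS1, at 11.2 CPM. In CD33KO_shPTPN6 sample 3 was high for A2M, at 491 CPM. In WT_shPTPN6 sample 3 was high for RIPK1 (32.2 CPM) and sample 5 for KDM5A (149 CPM). In WT_shCTRL sample 6 was low for WNK1 (259 CPM) and high for GAPDH (2154 CPM), and sample 1 was low for EMP1 (466 CPM).

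The knockdown change differed between the lines for 28 of the 53 named genes, by edgeR's interaction test. The share of all genes was 28.4%, and some of the 53 were named for a small interaction p or a large knockdown change, so nothing is read from the count. The interaction on the log2 scale was above 0 for 14 of them. On chromosome 6 these were RIPOR2 (1.63), NEDD9 (1.39), FARS2 (1.23), ZKSCAN8 (0.71), SOX4 (0.46) and TRIM27 (0.29). On chromosome 12 they were MGP (2.01), EMP1 (1.51), RASSF8-AS1 (1.29), CLEC2D (1.10), C3AR1 (1.09), CHD4 (0.50), RPL13AP20 (0.49) and A2M (0.43). It was below 0 for 14. On chromosome 6 these were EDN1 (-1.39), SERPINB1 (-1.22), DUSP22 (-1.11), TPMT (-0.81), H4C3 (-0.80), SERPINB6 (-0.75) and PHACTR1 (-0.70), and on chromosome 12 CLEC7A (-2.42), CD163 (-1.82), GABARAPL1 (-0.98), MGST1 (-0.97), LDHB (-0.50), ARHGDIB (-0.34) and GAPDH (-0.25).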

How the results depend on the processing

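No count of called segment genes moved by over 1.5 times. Among the named genes no called knockdown or interaction result turned its direction, and the other genes were not checked for this. Some segment medians moved by more than their spread over libraries. With no filter on low counts the chromosome 6 median of CD33KO to WT was 0.63 with the control vector and 0.71 with the hairpin, that of chromosome 12 with the hairpin -0.78, and the knockdown medians in WT were -0.13 (chromosome 6) and 0.019 (chromosome 12). The mean over genes was 0.85 for chromosome 6 with the control vector and -0.68 for chromosome 12 with the hairpin; for the knockdown it was -0.17 and -0.10 in WT and -0.22 and -0.091 in CD33KO (chromosomes 6 and 12). Protein-coding genes alone gave -0.83 for chromosome 12 with the hairpin. The first 25 Mb gave knockdown medians in WT of -0.019 and 0.024, and leaving out clustered families gave -0.041 on chromosome 6. Leaving out each library in turn gave 0.78 to 0.86 for chromosome 6 with the hairpin, and -0.083 to -0.022 and -0.019 to 0.0067 for the knockdown in WT. The cause was not tested.

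Of 99 tested gene results 88 kept their call throughout, and 11 lost it at least once: RIPK1, PPP1R3G, SSR1, E2F3, WNK1, A2M and RASSF8-AS1 for the knockdown in CD33KO, TRIM27 for the knockdown in WT, and ZKSCAN8, TRIM27 and RPL13AP20 for the interaction. Replicate numbers did not pair the libraries, with correlations of deviations from -0.043 to 0.032 and none over 0.1. With the replicate block the called genes for CD33KO against WT with the control vector were 96 and 115 on chromosomes 6 and 12, with medians of 0.74 and -0.74.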
